A study of Homo sapiens with 8 samples.

Results

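The spliceosome core proteins are the proteins of the small nuclear ribonucleoproteins (snRNPs), of the Prp19 complex (NTC) and of the RNA helicases that drive the splicing cycle. Their genes were taken from a list of 56 symbols, and for each the array row with the highest mean over all arrays was used. A named row was found for 43 of the 56 genes, out of 14884 genes with a named row in all. All 43 passed the filter on low levels. The other 13 listed genes were not analysed here: SF3A1, SF3A2, SF3A3, SF3B1, SF3B2, SF3B3, SF3B4, SF3B5, SF3B6, PRPF38B, CRNKL1, ISY1 and SYF2. The U2 snRNP is therefore seen without its SF3A and SF3B proteins.

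Affymetrix Human Gene 2.0 ST arrays measured RNA of NCI-H929 and MM1.S, established human multiple myeloma cell lines that grow in culture. The 4 groups of 2 arrays were NCI-H929 with a short hairpin against SIRT6 (shSIRT6), NCI-H929 with a scramble hairpin, MM1.S with shSIRT6 and MM1.S with the scramble hairpin. SIRT6 is an NAD-dependent deacetylase of chromatin, and the title of the study joins it to splicing in aggressive myeloma. No source used here states the hairpin sequences, how many hairpins there were, the time after delivery or whether the lines are clones. Both constructs put a hairpin into the cells, so cells without a hairpin were in no comparison.

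The spliceosome removes introns by assembling anew on each one. U1 snRNP recognises the 5' splice site, U2AF and U2 snRNP mark the 3' splice site and the branch point, and the tri-snRNP of U4, U6 and U5 then joins. Helicases remodel these particles, U1 and U4 leave, and the NTC stabilises the catalytic core. The minor spliceosome, with U11 and U12 snRNPs, handles a rare class of introns. In blood cancers, mainly of the myeloid lineage, the genes SF3B1 and U2AF1 are known for recurrent mutations.

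Promoters of the genes are shown first, since several of these genes differed the same way between the lines. RefSeq promoters on GRCh38.p14, from 250 bases before the transcript start to 50 bases after it, matched 51 of the 56 listed genes. Below are those of SNRPB and SNRPB2, which are lower in NCI-H929 than in MM1.S, and of BCAS2 and PLRG1, which are higher there. PLRG1 had a higher mean there with both constructs but was called with shSIRT6 and not with scramble. The promoters are printed 5' to 3' on the strand of the gene, with matches to the searched motifs in capitals. SNRPB, at chr20:2470740-2471039 on the minus strand, has 1 ETS match, and SNRPB2, at chr20:16729776-16730075 on the plus strand, has 2. BCAS2, at chr1:114581566-114581865 on the minus strand, has 2 GC box matches. PLRG1, at chr4:154550351-154550650 on the minus strand, has 1 CCAAT match, 1 GC box match and 2 ETS matches.
SNRPB: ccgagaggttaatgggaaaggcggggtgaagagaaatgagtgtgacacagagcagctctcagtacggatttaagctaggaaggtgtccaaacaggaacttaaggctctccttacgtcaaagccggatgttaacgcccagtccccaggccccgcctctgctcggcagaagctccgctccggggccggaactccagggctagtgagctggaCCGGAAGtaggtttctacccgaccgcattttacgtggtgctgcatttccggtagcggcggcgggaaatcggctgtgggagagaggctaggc
SNRPB2: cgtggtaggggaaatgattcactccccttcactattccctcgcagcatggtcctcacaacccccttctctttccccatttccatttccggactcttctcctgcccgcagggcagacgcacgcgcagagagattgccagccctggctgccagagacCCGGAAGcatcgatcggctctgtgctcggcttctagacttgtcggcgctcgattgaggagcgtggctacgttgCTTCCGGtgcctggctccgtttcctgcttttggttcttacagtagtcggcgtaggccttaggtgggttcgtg
BCAS2: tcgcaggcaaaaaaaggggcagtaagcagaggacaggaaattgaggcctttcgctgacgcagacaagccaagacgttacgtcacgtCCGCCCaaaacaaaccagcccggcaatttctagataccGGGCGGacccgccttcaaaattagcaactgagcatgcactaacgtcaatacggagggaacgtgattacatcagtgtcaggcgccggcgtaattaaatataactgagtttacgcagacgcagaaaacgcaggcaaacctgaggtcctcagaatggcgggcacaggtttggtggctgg
PLRG1: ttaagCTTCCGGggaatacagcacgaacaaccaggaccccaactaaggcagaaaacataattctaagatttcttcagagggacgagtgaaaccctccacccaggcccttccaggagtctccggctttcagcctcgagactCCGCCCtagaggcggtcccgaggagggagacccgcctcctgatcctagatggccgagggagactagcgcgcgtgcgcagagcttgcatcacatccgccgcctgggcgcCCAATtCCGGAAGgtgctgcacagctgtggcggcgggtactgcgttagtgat

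The motifs searched on both strands were the ETS motif CCGGAAG, the E-box CACGTG, the CCAAT box by those letters, the GC box GGGCGG, the TATA box TATAAA and the cyclic AMP response element TGACGTCA, none of which holds another. The ETS letters stood in 28 of the 51 promoters, or 54.9%, against 10.3% of 35116 promoters of all genes and 12.8% of 22199 promoters of protein-coding genes. The GC box stood in 62.7% of the 51, against 45% of all and 56.3% of protein-coding promoters, and CCAAT in 41.2%, against 34.6% and 34.7%. The E-box was found in 5.88%, against 7.26% of all and 8.34% of protein-coding promoters. The TATA box was found in 3.92%, against 11.5% and 9.47%, and the cyclic AMP response element in 1.96%, against 1.85% and 2.26%. By subgroup the ETS letters were present in 9 of 12 promoters of U2 snRNP and U2AF genes, 4 of 6 of the Sm core, 6 of 10 of the NTC and 4 of 5 of the helicases, but in 1 of 5 of the U4/U6 and tri-snRNP genes and 0 of 2 of the U11/U12 genes. A match describes letters only. SNRPB2, lower in NCI-H929, and PLRG1, higher there and called with shSIRT6, each had 2 ETS matches. The 4 genes shown were picked for their line differences, and a relation of the letters to direction was not tested.

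The 8 arrays had median log2 levels between 3.88 and 3.97, and arrays of 1 group correlated across rows at 0.989 to 0.992. The labels do not state separate cultures for the arrays of a group, so a p-value here gauges array-to-array spread, which may be technical. Exact permutation of 2 arrays against 2 cannot reach a p below 0.333, so each test is limma's, adjusted by Benjamini-Hochberg over all 12734 genes tested, and a gene is called at an adjusted p below 0.05. SIRT6 had log2 levels of 6.25 and 6.31 in NCI-H929 shSIRT6 arrays, against 6.53 and 6.97 in NCI-H929 scramble arrays. It had 5.60 and 5.78 in MM1.S shSIRT6 arrays, against 6.09 and 5.88 in MM1.S scramble arrays. Both shSIRT6 arrays lay below both scramble arrays in each line, but neither difference was called (adjusted p = 0.276 in NCI-H929 and 0.355 in MM1.S). Of 9 plasma cell markers 7 had a row, with SDC1, CD38, IRF4, XBP1, MZB1 and SLAMF7 at log2 levels of 7.96 to 11.74 on all arrays. The remaining marker with a row was lower, with a lowest level of 5.10 in NCI-H929 shSIRT6 arrays and 4.81 in NCI-H929 scramble arrays. Its lowest level was 5.11 in MM1.S shSIRT6 arrays and 5.03 in MM1.S scramble arrays. The B cell markers PAX5, CD22 and BLK lay between 3.04 and 4.36. FGFR3 and NSD2 were higher on every NCI-H929 array than on any MM1.S array, and MAF and CCND2 the reverse. In RNA from whole cultures, fewer cells of a kind and less RNA per cell cannot be told apart.

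More spliceosome genes were called between the lines than between the constructs, where the fit described here called none and only the fit with a trended variance, given beside each comparison, called up to 5. With shSIRT6, 20 of the 43 genes were called between NCI-H929 and MM1.S, 6 of them higher in NCI-H929 and 14 lower. That is 46.5% of the members, where 37.9% of all genes tested were called (18.4% higher and 19.5% lower). With the scramble hairpin 15 were called, 5 higher and 10 lower, or 34.9% of the members against 38.3% of all genes (20.0% higher and 18.3% lower). The shares lie on either side of those of all genes. The arrays of the lines did not overlap for 34 genes with shSIRT6, 9 higher and 25 lower in NCI-H929, where 65.7% of all genes did not overlap (32.4% higher and 33.2% lower). With scramble they did not overlap for 33, 13 higher and 20 lower, where 67.9% of all genes did not (36.0% higher and 31.9% lower). With a variance that follows the level (eBayes with a trend) 26 members were called with shSIRT6 and 23 with scramble. Of all genes 41.1% and 41.8% were called by that fit. With scramble it added AQR, CWC15, CWC22, PLRG1, PRPF3, SNRPA, SNRPD3 and SNRPE to the calls. With shSIRT6 it added AQR, CDC5L, EFTUD2, PRPF8, SNRNP200 and SNRPG. Leaving out NCI-H929 scramble replicate 2 left 8 calls with scramble. The median difference was −0.19 log2 with shSIRT6, beside 0.00 over all genes, and −0.085 with scramble, beside 0.03 over all genes. The scramble and the shSIRT6 comparison share no array, and 12 genes were called in both with one sign, 4 higher and 8 lower in NCI-H929. They were 12 of the 20 and 12 of the 15 genes called, and 28.8% of all genes tested were called in both with one sign. Across the 43 genes the differences with the 2 constructs correlated at r = 0.83 (Spearman rho = 0.81), and at r = 0.90 across all genes tested, as a description.

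**Figure D1:**
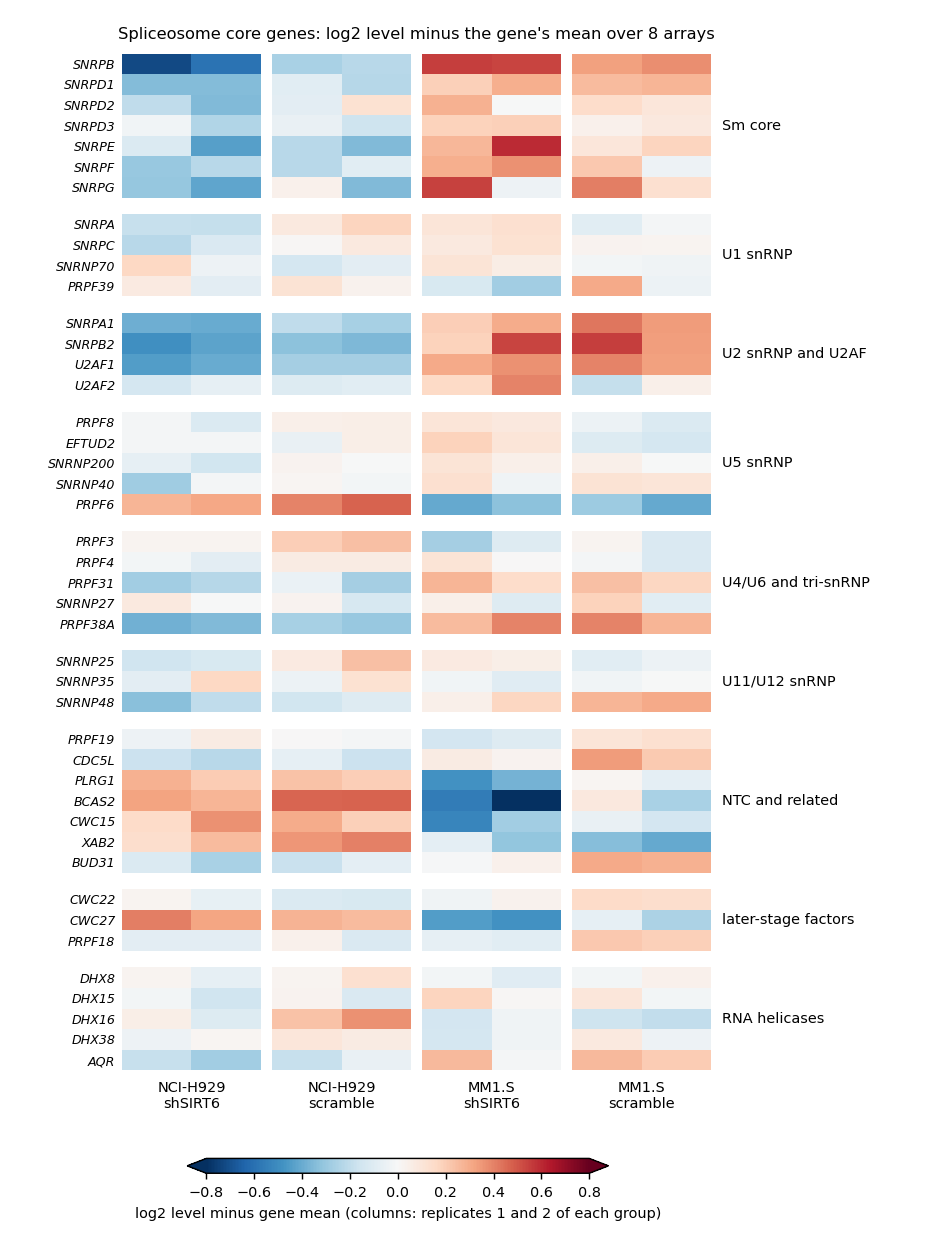
Log2 level of each of the 43 spliceosome core genes on each of the 8 arrays, minus the mean of that gene over the 8 arrays (colour, log2 units). Rows are genes by subgroup and columns are the 2 replicates of each group. SNRPB, SNRPA1, SNRPB2 and U2AF1 are below their mean on all 4 NCI-H929 arrays and above it on all 4 MM1.S arrays, and PRPF6 is the reverse.

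All 7 genes of the Sm proteins, which form the ring around the small nuclear RNAs of U1, U2, U4 and U5 snRNPs, had a lower mean in NCI-H929 with both constructs. With shSIRT6 6 of the 7 were called, and with scramble 2 of the 7, where 37.9% and 38.3% of all genes tested were called. The median difference was −0.59 with shSIRT6 and −0.42 with scramble. SNRPB, which encodes SmB, had log2 levels of 7.14 and 7.27 in NCI-H929 shSIRT6 arrays, against 8.41 and 8.40 in MM1.S shSIRT6 arrays. It had 7.60 and 7.64 in NCI-H929 scramble arrays, against 8.19 and 8.23 in MM1.S scramble arrays. All 4 NCI-H929 arrays lay below all 4 MM1.S arrays, and the 4 groups did not overlap. The difference was −1.20 ± 0.0945 log2 (limma SE, 2 arrays a group, adjusted p = 7.25e-05) with shSIRT6 and −0.59 ± 0.0945 (adjusted p = 0.00199) with scramble.

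SNRPD1 had log2 levels of 9.22 and 9.22 in NCI-H929 shSIRT6 arrays, against 9.76 and 9.86 in MM1.S shSIRT6 arrays. It had 9.48 and 9.34 in NCI-H929 scramble arrays, against 9.82 and 9.84 in MM1.S scramble arrays. The arrays of the lines did not overlap with either construct, and the difference was −0.59 ± 0.098 (limma, adjusted p = 0.00239) with shSIRT6 and −0.42 ± 0.098 (adjusted p = 0.0115) with scramble. SNRPE had 6.16 and 5.83 in NCI-H929 shSIRT6 arrays, against 6.54 and 6.87 in MM1.S shSIRT6 arrays. It was called with shSIRT6 (−0.71 ± 0.154, limma adjusted p = 0.00846), and the difference with scramble was −0.425. The other row of SNRPE gave −0.37 with shSIRT6 and −0.70 with scramble, so the size of the difference with each construct depends on the row. SNRPF was called as well (−0.59 ± 0.119, adjusted p = 0.00599), with 5.66 and 5.74 in NCI-H929 shSIRT6 arrays, against 6.25 and 6.33 in MM1.S shSIRT6 arrays. SNRPD2 (−0.42 ± 0.134, adjusted p = 0.0417) and SNRPD3 (−0.32 ± 0.107, adjusted p = 0.04997) passed narrowly with shSIRT6, and lost the call under 7 and 13 of 18 alternatives. SNRPG, with 5.45 and 5.34 in NCI-H929 shSIRT6 arrays, against 6.31 and 5.72 in MM1.S shSIRT6 arrays, was not called (−0.62 ± 0.218, adjusted p = 0.0589), and its 2 MM1.S arrays lay far apart. SNRPE, SNRPF and SNRPG have pseudogene copies and SNRPB has the close relative SNRPN, so their levels are uncertain, and reads of these copies by the array were not tested.

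Genes of U2 snRNP and U2AF were lower in NCI-H929 too. All 4 measured were called with shSIRT6 and 3 of them with scramble, where 37.9% and 38.3% of all genes were. The median differences were −0.7025 and −0.625. SNRPB2, which binds a stem-loop of U2 RNA, had log2 levels of 8.73 and 8.79 in NCI-H929 shSIRT6 arrays, against 9.40 and 9.76 in MM1.S shSIRT6 arrays, and 8.89 and 8.86 in NCI-H929 scramble arrays, against 9.77 and 9.55 in MM1.S scramble arrays. No NCI-H929 array overlapped any MM1.S array, and the differences were −0.82 ± 0.141 (limma, adjusted p = 0.00283) and −0.785 ± 0.141 (adjusted p = 0.00344). SNRPA1, which partners it on U2 RNA, had 7.42 and 7.41 in NCI-H929 shSIRT6 arrays, against 8.01 and 8.11 in MM1.S shSIRT6 arrays. Its differences were −0.645 ± 0.0951 (adjusted p = 0.00134) with shSIRT6 and −0.615 ± 0.0951 (adjusted p = 0.00167) with scramble. U2AF1, the small U2AF subunit that reads the AG of the 3' splice site, had 7.51 and 7.55 in NCI-H929 shSIRT6 arrays, against 8.26 and 8.32 in MM1.S shSIRT6 arrays. Its differences were −0.76 ± 0.0909 (adjusted p = 0.000485) and −0.635 ± 0.0909 (adjusted p = 0.00117). U2AF2, the large subunit that binds the polypyrimidine tract, was called with shSIRT6 (−0.385 ± 0.125, adjusted p = 0.0451) and lost the call under 9 of 18 alternatives. Its scramble arrays overlapped, at 9.27 and 9.29 in NCI-H929, against 9.19 and 9.43 in MM1.S.

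**Figure D2:**
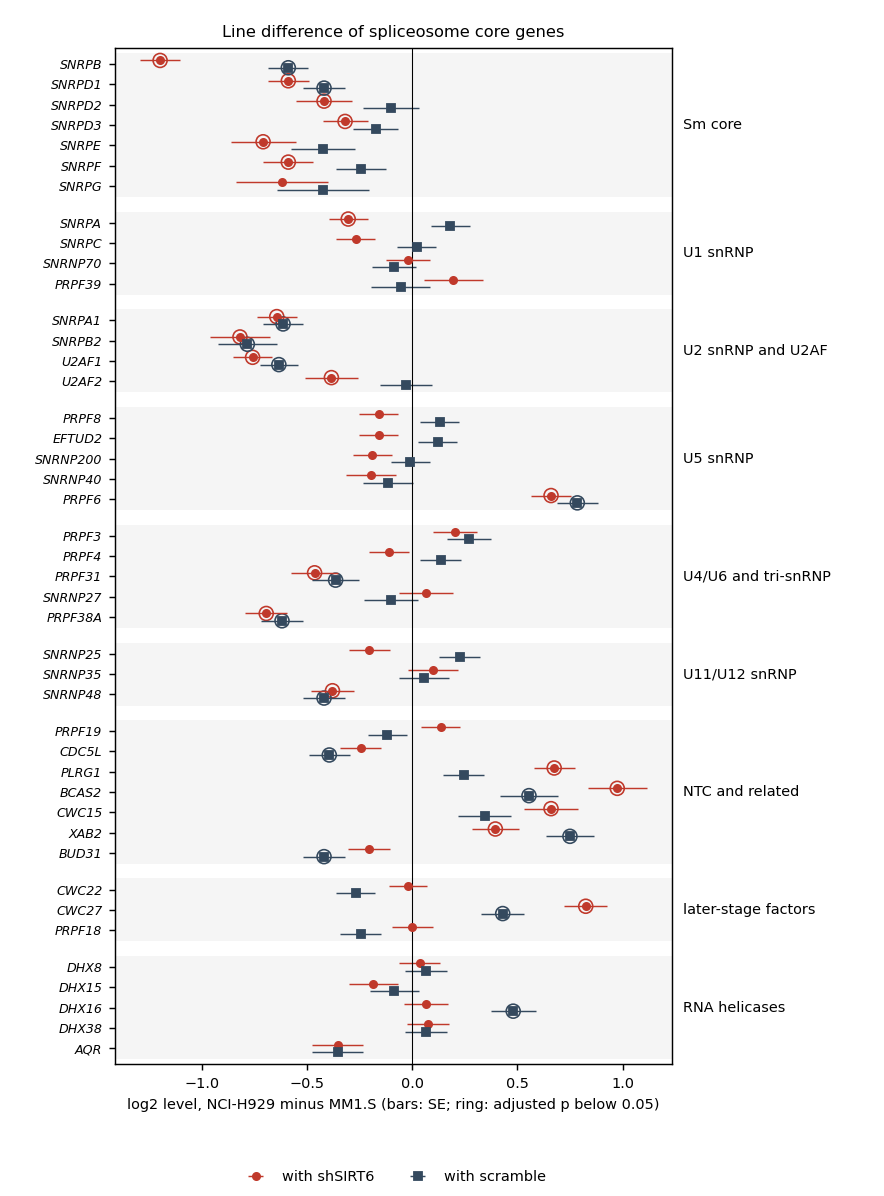
Log2 difference NCI-H929 minus MM1.S for each of the 43 genes with shSIRT6 (circles) and with scramble (squares), bars giving limma's SE and rings a call at an adjusted p below 0.05. All 7 Sm core genes and all 4 U2 snRNP and U2AF genes lie left of 0 with both constructs, while PRPF6, BCAS2, XAB2 and CWC27 lie right of it with both.

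Of the 4 U1 genes, 1 was called between the lines, with shSIRT6 only, where 37.9% of all genes were called. SNRPA, which binds a stem-loop of U1 RNA and is a paralogue of SNRPB2, had log2 levels of 8.75 and 8.74 in NCI-H929 shSIRT6 arrays, against 9.04 and 9.06 in MM1.S shSIRT6 arrays (−0.305 ± 0.0933, limma adjusted p = 0.036), a call lost under 10 of 18 alternatives. Its scramble arrays stood the other way, at 9.01 and 9.11 in NCI-H929, against 8.84 and 8.92 in MM1.S, and were not called. SNRPC, which contacts the 5' splice site duplex, had 6.34 and 6.44 in NCI-H929 shSIRT6 arrays, against 6.64 and 6.68 in MM1.S shSIRT6 arrays, and missed the call (adjusted p = 0.0558). SNRNP70, which holds the first stem-loop of U1 RNA, and PRPF39, a U1-associated factor, were not called with either construct.

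Among U5 proteins, PRPF6, which bridges U5 and U4/U6, was higher in NCI-H929 and the other 4 were not called. PRPF6 had log2 levels of 8.61 and 8.65 in NCI-H929 shSIRT6 arrays, against 7.93 and 8.01 in MM1.S shSIRT6 arrays. It had 8.74 and 8.81 in NCI-H929 scramble arrays, against 8.05 and 7.93 in MM1.S scramble arrays. No NCI-H929 array overlapped any MM1.S array, and the differences were 0.66 ± 0.097 (limma, adjusted p = 0.00132) and 0.785 ± 0.097 (adjusted p = 0.000588). PRPF8, the scaffold of the active site, the GTPase EFTUD2, the U4/U6-unwinding helicase SNRNP200 and SNRNP40 had differences between −0.195 and 0.13.

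In the tri-snRNP set PRPF38A, which joins with the tri-snRNP before activation, was lower in NCI-H929, at log2 levels of 9.15 and 9.18 with shSIRT6, against 9.79 and 9.93 in MM1.S shSIRT6 arrays. The difference was −0.695 ± 0.1 (limma, adjusted p = 0.0012) with shSIRT6 and −0.62 ± 0.1 (adjusted p = 0.00207) with scramble. PRPF31, a U4/U6 protein, was lower as well (−0.465 ± 0.111, adjusted p = 0.0129, and −0.365 ± 0.111, adjusted p = 0.0344), and lost the call under 2 of 18 alternatives with shSIRT6 and 4 with scramble. The U4/U6 proteins PRPF3 and PRPF4 and the tri-snRNP protein SNRNP27 were not called. Of the 3 proteins of the U11/U12 particle, SNRNP48 was lower in NCI-H929 with both constructs (−0.38 ± 0.1, adjusted p = 0.0202, and −0.42 ± 0.1, adjusted p = 0.0128), calls lost under 3 and 4 of 18 alternatives. SNRNP25 and SNRNP35 were not called.

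Several genes of the NTC and its neighbours were higher in NCI-H929. With shSIRT6 4 of 7 were called, all higher in NCI-H929, and with scramble 2 were called higher and 2 lower. Of all genes 18.4% were called higher and 19.5% lower with shSIRT6, and 20.0% higher and 18.3% lower with scramble. BCAS2, a core NTC subunit, had log2 levels of 9.01 and 8.96 in NCI-H929 shSIRT6 arrays, against 8.13 and 7.89 in MM1.S shSIRT6 arrays. It had 9.15 and 9.16 in NCI-H929 scramble arrays, against 8.77 and 8.43 in MM1.S scramble arrays. The MM1.S shSIRT6 arrays were the lowest of all 8, and the differences were 0.975 ± 0.139 (limma, adjusted p = 0.00115) with shSIRT6 and 0.555 ± 0.139 (adjusted p = 0.0157) with scramble. PLRG1, a WD-repeat NTC subunit, had 9.51 and 9.43 in NCI-H929 shSIRT6 arrays, against 8.74 and 8.85 in MM1.S shSIRT6 arrays (0.675 ± 0.0973, adjusted p = 0.0012). With scramble it had 9.46 and 9.42, against 9.24 and 9.15, and was not called (0.245 ± 0.0973, adjusted p = 0.0874). CWC15, an NTC-associated protein, had 7.81 and 8.02, against 7.13 and 7.38 (0.66 ± 0.126, adjusted p = 0.00473), and it was not called with scramble, at 7.95 and 7.85, against 7.60 and 7.51 (0.345 ± 0.126, adjusted p = 0.0672). XAB2, a helical-repeat protein that also serves transcription-coupled repair, was called with shSIRT6 (0.395 ± 0.113, adjusted p = 0.0277) and with scramble (0.75 ± 0.113, adjusted p = 0.00148). CDC5L, a Myb-related NTC core subunit, and BUD31 were lower in NCI-H929 with scramble (−0.395 ± 0.0983, adjusted p = 0.0152, and −0.42 ± 0.0988, adjusted p = 0.012). PRPF19, the ubiquitin ligase that gives the complex its name, was not called.

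Of the later-stage factors, CWC27, a cyclophilin-like protein of the activated spliceosome, was higher in NCI-H929, at log2 levels of 9.13 and 9.04 with shSIRT6, against 8.28 and 8.24 in MM1.S shSIRT6 arrays. The difference was 0.825 ± 0.102 (limma, adjusted p = 0.000576) with shSIRT6 and 0.43 ± 0.102 (adjusted p = 0.0125) with scramble. CWC22, which helps place the exon junction complex, and PRPF18 were not called. Among 5 helicases DHX16, related to yeast Prp2, was called with scramble, at 7.36 and 7.49 in NCI-H929, against 6.96 and 6.93 in MM1.S (0.48 ± 0.106, adjusted p = 0.00913). In the row used, the arrays of the lines overlapped for DHX16 with shSIRT6. AQR, the intron-binding helicase, was −0.355 with each construct and missed the call with both (adjusted p = 0.0542 with shSIRT6 and 0.0535 with scramble). DHX8, which releases the mRNA, DHX15, which takes the spent complex apart, and DHX38, which remodels the complex between the catalytic steps, were not called.

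Proliferation genes differed between the lines too. Of 25 tested, 18 were called lower and 1 higher in NCI-H929 with shSIRT6, and 12 lower and 5 higher with scramble. Of all genes 37.9% and 38.3% were called. Their summed intensity was 12857 to 12923 in NCI-H929 shSIRT6 arrays, against 20283 to 20834 in MM1.S shSIRT6 arrays, and 15793 to 15893 in NCI-H929 scramble arrays, against 19513 to 19922 in MM1.S scramble arrays. Their part in the spliceosome differences was not tested.

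In MM1.S no spliceosome gene passed the test for shSIRT6 against scramble, where 1.33% of all genes tested did. At an unadjusted p below 0.05 there were 10, of which 2 were higher and 8 lower in shSIRT6 arrays, or 23.3% against 19.6% of all genes (8.25% higher and 11.3% lower). Of the 43 genes 18 had a higher and 25 a lower mean, with a median of −0.02 log2, beside 0.005 over all genes. With quantile and with cyclic loess normalization 22 had a higher and 21 a lower mean, and the median was 0.00063 and 0.012, beside 0.014 and −0.019 over all genes. The arrays of the constructs did not overlap for 26 genes, 14 of them higher and 12 lower with shSIRT6, where 50.7% of all genes did not overlap (24.4% higher and 26.3% lower). Leaving out each array in turn moved the median between −0.06 and 0.04, and called no gene.

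The 2 genes of lowest p in MM1.S encode NTC subunits. BCAS2 had log2 levels of 8.13 and 7.89 in shSIRT6 arrays, against 8.77 and 8.43 in scramble arrays, a difference of −0.59 ± 0.139 (limma, adjusted p = 0.0882). PLRG1 had 8.74 and 8.85, against 9.24 and 9.15 (−0.40 ± 0.0973, adjusted p = 0.093). The arrays of the constructs did not overlap for either gene. Of 7 NTC genes 6 had a lower mean with shSIRT6 and 5 had an unadjusted p below 0.05, with a median of −0.275. Over all genes 48.8% had a lower mean and 19.6% such a p. PRPF19 had 8.29 and 8.33, against 8.54 and 8.56 (−0.24 ± 0.0925, adjusted p = 0.217), and BUD31 had 7.41 and 7.46, against 7.72 and 7.70 (−0.275 ± 0.0988, adjusted p = 0.19). XAB2 was the NTC gene with a higher mean, at 8.48 and 8.24 in shSIRT6 arrays, against 8.22 and 8.15 in scramble arrays. All 3 later-stage factors had a lower mean with shSIRT6, among them PRPF18, a factor of the second catalytic step, at 6.98 and 6.96, against 7.27 and 7.24 (−0.285 ± 0.0969, adjusted p = 0.174), and CWC27, at 8.28 and 8.24, against 8.65 and 8.47 (−0.30 ± 0.102, adjusted p = 0.174).

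Several genes of other subgroups had a higher mean with shSIRT6 in MM1.S. EFTUD2 had log2 levels of 9.93 and 9.85 in shSIRT6 arrays, against 9.64 and 9.61 in scramble arrays (0.265 ± 0.0942, limma adjusted p = 0.187). U2AF2 had 9.54 and 9.78, against 9.19 and 9.43 (0.35 ± 0.125, adjusted p = 0.189). Neither was called, although the arrays of the constructs did not overlap for either. Sm core genes had a median of 0.125 and U1 genes of 0.0925, while the helicases were at −0.07, with a range of −0.11 to 0.09. With the trended variance 5 members passed in MM1.S, where 7.48% of all genes did: PLRG1 (adjusted p = 0.00253), BCAS2 (0.00361), EFTUD2 (0.0147), CWC27 (0.0263) and U2AF2 (0.0268).

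In NCI-H929 again no spliceosome gene passed for shSIRT6 against scramble, where 0.0236% of all genes tested did. At an unadjusted p below 0.05 there were 4, all lower in shSIRT6 arrays, or 9.30% against 14.5% of all genes (9.75% lower). Of the 43 genes 8 had a higher and 34 a lower mean, or 79.1% lower, where 58.1% of all genes were lower. The median was −0.105, beside −0.045 over all genes, and it was −0.034 with quantile normalization (all genes −0.0066), −0.033 with cyclic loess (all genes −0.024) and −0.06 with arrays centred on their median (all genes 0). Under these 3 settings 26, 27 and 29 of the 43 genes had a lower mean with shSIRT6, in the same order. The 43 genes stood at high levels, with a median of 8.34 log2, beside 5.04 over all named genes. Over genes above the 50th percentile of rows by mean level, the median difference was −0.065. Whether the lower means go with level was not tested. Both shSIRT6 arrays lay below both scramble arrays for 20 genes and above them for 3, where 46.6% of all genes did not overlap (30% below and 16.6% above).

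SNRPB had log2 levels of 7.14 and 7.27 in shSIRT6 arrays, against 7.60 and 7.64 in scramble arrays, a difference of −0.415 ± 0.0945 (limma, adjusted p = 0.196). SNRPA had 8.75 and 8.74, against 9.01 and 9.11 (−0.315 ± 0.0933, adjusted p = 0.247). SNRNP25, a U11/U12 protein, had 5.07 and 5.10, against 5.30 and 5.47 (−0.30 ± 0.0986, adjusted p = 0.27). The arrays of the constructs did not overlap for any of these 3 genes, nor for DHX16 (in the row used), SNRPC and SNRPD2, given next. DHX16 had 7.18 and 7.02, against 7.36 and 7.49 (−0.325 ± 0.106, adjusted p = 0.27). SNRPC had 6.34 and 6.44, against 6.57 and 6.64 (−0.215 ± 0.0932, adjusted p = 0.351), and SNRPD2 had 7.76 and 7.61, against 7.88 and 8.09 (−0.30 ± 0.134, adjusted p = 0.36). Sm core genes had a median of −0.19, and the later-stage factors of 0.095. Of the Sm core 6 of 7 genes had a lower mean, as had all 5 U5 genes and all 4 U2 genes, or 5, 4 and 3 of them with each of the 3 other scalings. All 5 helicases had a lower mean, or 3 with quantile normalization and 4 with the other 2 scalings. With the trended variance SNRPB (adjusted p = 0.0259) and SNRPA (0.0337) passed, where 1.52% of all genes did.

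Genes of proliferation were read for this comparison too. All 25 had a lower mean in NCI-H929 shSIRT6 arrays, with a median of −0.28 and 19 at an unadjusted p below 0.05, though 0 were called. Of all genes 14.5% had such an unadjusted p. Their summed intensity was 12857 to 12923 in shSIRT6 arrays, against 15793 to 15893 in scramble arrays. In MM1.S it was 20283 to 20834 in shSIRT6 arrays, against 19513 to 19922 in scramble arrays. Of 9 T and NK cell markers 6 had a row and CD3D, CD3E and CD3G had none. All 6 had a higher mean with shSIRT6 in NCI-H929, with a summed intensity of 133 to 137 in shSIRT6 arrays, against 104 to 116 in scramble arrays. Their levels were low, at 2.91 to 5.47 log2 on the NCI-H929 arrays, and 0 were called. In MM1.S 4 of the 6 had a higher and 2 a lower mean with shSIRT6. The part of either list in the spliceosome result was not tested.

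**Figure D3:**
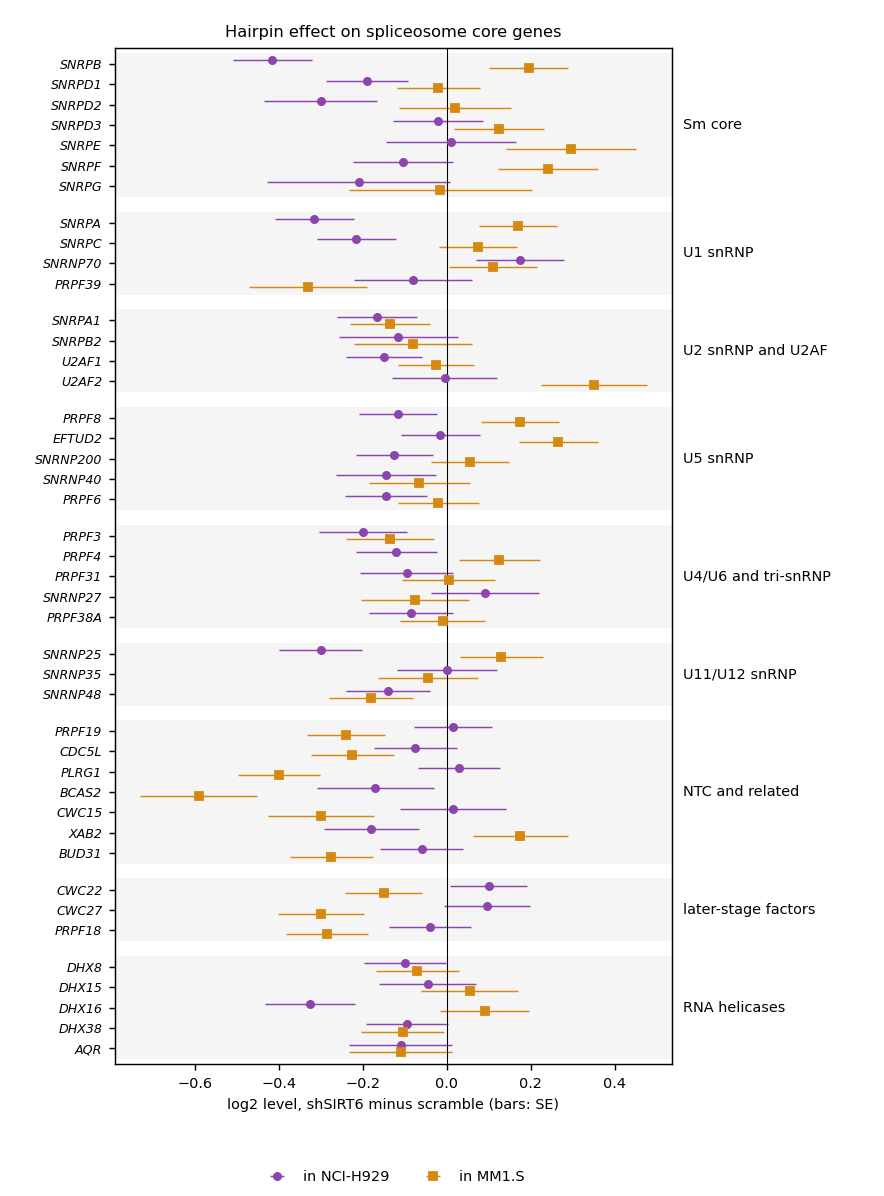
Log2 difference shSIRT6 minus scramble for each of the 43 genes in NCI-H929 (circles) and in MM1.S (squares), with limma's SE as bars. BCAS2 and PLRG1 lie furthest left in MM1.S, at −0.59 and −0.40, and SNRPB furthest left in NCI-H929, at −0.415; none was called.

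The hairpin comparisons of the lines share no array. Their differences had the same sign for 20 of the 43 genes, or 46.5%, where 56.2% of all genes had it, and correlated at r = −0.23 across the 43, against 0.16 across all genes, as a description. Of the 43 genes 18 had a lower mean with shSIRT6 in both lines and 2 a higher mean in both. For the mean of the lines no gene was called, where 0.0864% of all genes were, and 4 had an unadjusted p below 0.05, all lower, or 9.30% against 21.3% (13.6% lower). BCAS2 was the nearest (−0.38 ± 0.0985, limma adjusted p = 0.111), followed by PLRG1 (−0.185 ± 0.0688, adjusted p = 0.192). With the trended variance both passed (adjusted p = 0.00973 and 0.0312), where 7.15% of all genes did. The median over the 43 genes was −0.0875, beside −0.0225 over all genes and −0.0475 over genes above the 50th percentile of rows. It was −0.019 with quantile normalization (all genes 0.0011) and −0.041 with cyclic loess (all genes −0.024).

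The test of the difference between the lines called no spliceosome gene, where 0.204% of all genes were called. At an unadjusted p below 0.05 there were 6, 2 positive and 4 negative, or 13.95% against 13.8% of all genes (5.73% positive and 8.11% negative). SNRPB had a hairpin difference that was lower in NCI-H929 than in MM1.S (−0.61 ± 0.134, limma adjusted p = 0.157), as had SNRPA (−0.485 ± 0.132, adjusted p = 0.215). In NCI-H929 the shSIRT6 arrays of both genes lay below the scramble arrays, and in MM1.S above them. PLRG1 (0.43 ± 0.138, adjusted p = 0.255) and CWC27 (0.395 ± 0.144, adjusted p = 0.299) stood the other way. All 7 Sm core genes had a negative difference between the lines, though that of SNRPE was 0.33 with its other row and 0.0225 with the mean of its rows. All 5 U5 genes had a negative difference, and so had all 4 U2 genes, or 2 of the 4 with quantile, cyclic loess or centred arrays. Of 7 NTC genes 6 had a positive one, and so had all 3 later-stage factors. SNRPB, SNRPA and PLRG1 passed with the trended variance (adjusted p = 0.0106, 0.012 and 0.0237), where 3.38% of all genes did.

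**Figure D4:**
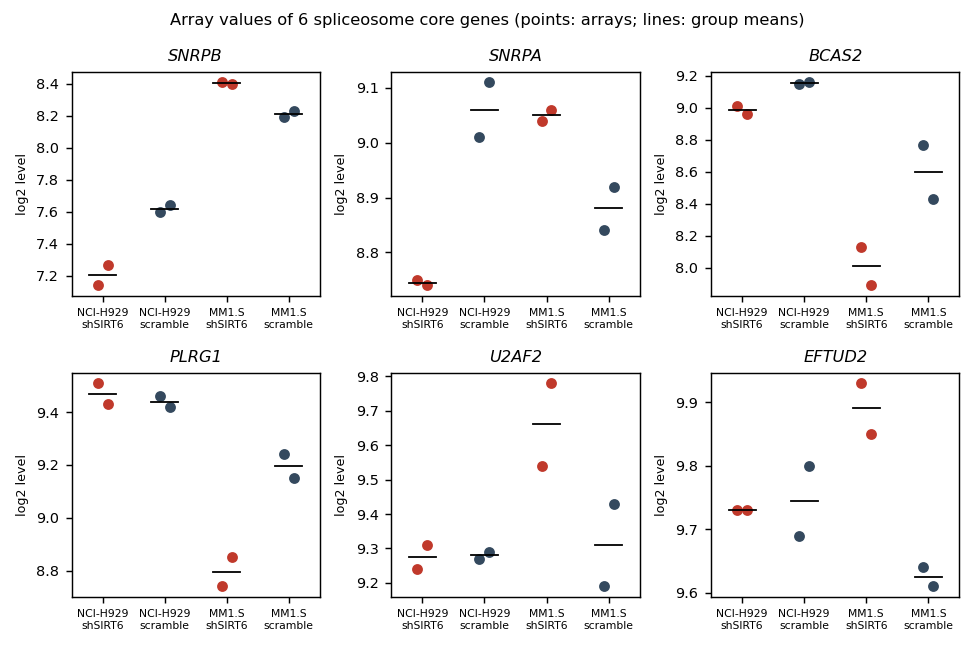
Log2 level on each array (points) with the group mean (line) for 6 genes in NCI-H929 shSIRT6, NCI-H929 scramble, MM1.S shSIRT6 and MM1.S scramble arrays; each panel has its own axis, which does not start at 0. SNRPB is at 7.14 and 7.27 in NCI-H929 shSIRT6 arrays, below its scramble arrays, and at 8.41 and 8.40 in MM1.S shSIRT6 arrays, above its scramble arrays.

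Intervals bound the hairpin differences only as far as array-to-array spread goes, which may be technical. They are not adjusted for the number of genes. Across the 43 genes limma's SE ran from 0.0909 to 0.218 with a median of 0.100 in each single-line hairpin comparison. In MM1.S every 95% interval lay within 1 log2 of 0, from −0.916 for BCAS2 to 0.656 for SNRPE, and 32 of 43 lay within 0.5. In NCI-H929 every interval lay within 1 log2 too, from −0.718 for SNRPG to 0.420 for SNRNP70, and 37 lay within 0.5.

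Some genes had more than 1 row, and the rows of SNRPE and those of SNRNP27 disagreed. For SNRPE the row used gave a hairpin difference of 0.295 in MM1.S, while the other row gave −0.205. In NCI-H929 the row used gave 0.01 and the other 0.125. For the difference between the lines the row used gave −0.285 and the other 0.33. Both rows of SNRPE are assigned to the same transcript, and which of them reads SNRPE itself was not tested. Counts, medians and intervals of the Sm core given here rest on the row used. For SNRNP27 the row used gave −0.075 for the hairpin in MM1.S and 0.165 for the difference between the lines. Its other row, at a mean level of 3.36, gave 0.31 and −0.23. Between the lines with scramble the row used gave −0.10 and the other 0.18. DHX16 had 8 rows, which gave −0.325 to −0.05 for the hairpin in NCI-H929 and 0.405 to 0.48 for the lines with scramble. The 8 rows stand for 1 transcript and several hold identical values, so they are not separate measurements. The row that gave −0.05 had 6.89 and 6.93 in NCI-H929 shSIRT6 arrays, against 6.89 and 7.03 in NCI-H929 scramble arrays. Between the lines with shSIRT6 that row gave 0.305, beside 0.065 for the row used.

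Other splicing factors and the genes that build snRNPs were read beside the core. Of 68 other splicing factors 47 were tested, 0 were called for the hairpin in MM1.S or in NCI-H929, and their medians were −0.06 and −0.09. Between the lines 8 were called higher and 11 lower in NCI-H929 with shSIRT6, where 37.9% of all genes were called, and 11 higher and 12 lower with scramble, where 38.3% were. SNW1, which joins the NTC at activation, had log2 levels of 8.28 and 8.20 in NCI-H929 shSIRT6 arrays, against 7.21 and 7.11 in MM1.S shSIRT6 arrays (1.08 ± 0.0976, limma adjusted p = 0.000133). RBM22, an NTC-related protein that contacts the catalytic RNA, was higher as well (0.79 ± 0.0962, adjusted p = 0.000534). WBP11, a splicing factor, had 6.64 and 6.54, against 7.95 and 7.76 (−1.265 ± 0.106, adjusted p = 9.59e-05). HTATSF1, a U2-associated factor, was higher (0.60 ± 0.0947, adjusted p = 0.0019), and with scramble so was DDX41, a helicase (0.845 ± 0.107, adjusted p = 0.000646). Of 9 tested genes of snRNP assembly 6 were called between the lines with each construct, 4 higher and 2 lower, beside the same 37.9% and 38.3% of all genes, and 0 for the hairpin. PRMT5, the methyltransferase that prepares Sm proteins for assembly, was higher in NCI-H929 with shSIRT6 (1.575 ± 0.132, adjusted p = 9.59e-05), with log2 levels of 7.59 and 7.55, against 6.11 and 5.88 in MM1.S shSIRT6 arrays. STRAP, which works with the SMN complex, was lower (−1.14 ± 0.0955, adjusted p = 9.6e-05), with 8.37 and 8.41, against 9.57 and 9.49.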

How the data were processed

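RNA of 8 samples of established myeloma lines was hybridised to arrays, 4 groups of 2. The authors deposited values on a log2 scale, made with RMA and the Transcriptome Analysis Console on the hg19 build, per the submitters' processing notes; no source used here gives versions or the variant of RMA. Raw scanner signals were not used, no probe was judged against background, and the number of arrays limits the precision. The platform table names 1 gene for 16098 of 48226 rows and none for 32128, which are unnamed here.

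For each gene the row of highest mean was kept (779 genes had over 1 row). The test took genes whose mean exceeded a log2 level of 3.045, the 30th percentile over rows. A limma 3.58.1 model (R 4.3.3; lmFit, eBayes) had 1 mean per group on all 8 arrays (4 residual and 3.43 prior degrees of freedom), with Benjamini-Hochberg adjustment over all 12734 genes. The 6 contrasts were shSIRT6 minus scramble in each line, their mean and difference, and NCI-H929 minus MM1.S with each construct. The code was tested on simulated data. The members, lists and rules were chosen with earlier results of these data known. Named genes are SIRT6, called members, the 8 of lowest p for each hairpin contrast and for the difference, subgroup extremes, and up to 4 called other splicing factors per contrast; genes of snRNP assembly and SNRPG, SNRPC and AQR near the threshold were chosen after their values were seen. Summed intensity is the sum of 2 to the power of the log2 values. Alternatives covered normalization, filter, rows per gene, variance model, arrays in the fit, a replicate block and leaving out each array.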

Additional observations from a re-analysis of the deposited data

How the results depend on the processing

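Of the 18 alternatives, none made the count of called members in a hairpin comparison other than 0, except eBayes with a trend in level, which called 5 members in MM1.S, 2 in NCI-H929, 2 for the mean of the lines and 3 for the difference between them. It also called 23 members between the lines with scramble and 26 with shSIRT6. Leaving out each array in turn gave 8 to 16 calls with scramble and 14 to 17 with shSIRT6, and 0 in every hairpin comparison; the lowest, 8, came without NCI-H929 scramble replicate 2, with 10 without MM1.S scramble replicate 2. The cause was not tested. The median over members in NCI-H929 was −0.034 with quantile normalization, −0.033 with cyclic loess and −0.06 with centred arrays, that of the mean of the lines −0.019 and −0.041 with the first 2 of these, that of the difference −0.03875, −0.035 and −0.0425 with all 3, and that of the lines with scramble −0.1275 with centred arrays. Leaving out each array moved the medians from −0.06 to 0.04 in MM1.S, −0.125 to −0.10 in NCI-H929, −0.10 to −0.07 for the mean, −0.135 to −0.055 for the difference, −0.12 to −0.04 between the lines with scramble and −0.215 to −0.15 with shSIRT6. Over all 43 spliceosome genes, 185 of 4558 differences under the alternatives changed sign or became 0. They belong to 68 of the 258 differences, of which 0 were called, and the largest was the difference between the lines of SNRPE, at −0.285. Those of genes named by the rule were as follows, with the leave-one-out range after each gene. In NCI-H929 the hairpin difference with quantile, cyclic loess and centred arrays was 0.02, 0.035 and 0.00 for DHX15 (−0.12 to 0.03), 0.032, 0.064 and 0.03 for EFTUD2 (−0.07 to 0.04), 0.067, 0.032 and 0.005 for PRPF18 (−0.12 to 0.04), 0.056, 0.076 and 0.04 for U2AF2 (−0.04 to 0.03) and −0.034, −0.066 and 0.045 for SNRNP35 (−0.125 to 0.125, reported as 0.00). It ran from −0.01 to 0.07 for PLRG1 and from −0.155 to 0.175 for SNRPE. In MM1.S it was 0.00063 with quantile for SNRNP40 (−0.145 to 0.015) and 0.019 with cyclic loess for SNRPD1 (−0.07 to 0.03), and AQR ran from −0.25 to 0.03. For the mean of the lines the 3 settings gave 0.053, 0.036 and 0.0013 for CWC22 (−0.0475 to −0.0025) and 0.065, 0.059 and 0.024 for XAB2 (−0.0625 to 0.0575). Centred arrays gave 0.0038 for SNRNP35 (−0.085 to 0.04), DHX15 ran from −0.0375 to 0.0475 and SNRNP27 from −0.0625 to 0.0775. For the difference between the lines the 3 settings gave 0.011, 0.015 and 0.0075 for SNRPA1 (−0.08 to 0.02), and the mean of rows gave 0.0225 for SNRPE (−0.45 to −0.12) and −0.0325 for SNRNP27 (0.025 to 0.305). There DHX38 ran from −0.05 to 0.07, SNRNP35 from −0.08 to 0.17 and SNRNP40 from −0.215 to 0.055. Between the lines with shSIRT6 CWC22 was 0.014 with cyclic loess (−0.065 to 0.025) and SNRNP35 ran from −0.025 to 0.225. With scramble SNRPD2 ran from −0.205 to 0.005 and U2AF2 from −0.15 to 0.09. Calls between the lines with shSIRT6 were lost under 13 of the 18 alternatives for SNRPD3, 10 for SNRPA, 9 for U2AF2, 7 for SNRPD2, 4 for XAB2, 3 for SNRNP48 and 2 for each of PRPF31 and SNRPE. With scramble they were lost under 4 for PRPF31 and SNRNP48, 3 for BCAS2 and CWC27, 2 for BUD31, CDC5L and SNRPD1 and 1 for DHX16. Deviations of same-numbered arrays from their group means correlated at −0.041 to 0.077 across genes. These values show no strong shift shared by number, but cannot tell whether the arrays were prepared in pairs. With the replicate number as a block (replicate block) 16 members were called between the lines with scramble and 19 with shSIRT6. In the hairpin comparisons the block fit called 0. The fit of only the arrays of a comparison was not run for the mean and the difference, which use all 8 arrays.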
